A study of Mus musculus with 43 samples.

Results

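The signalling lymphocytic activation molecule (SLAM) receptors were followed in mononuclear cells sorted from the lungs of newborn mice. The set holds 7 genes, Slamf1, Slamf7, Slamf8, Slamf9, Cd48, Cd84 and Ly9, of 37991 in the count table. They were found in it by their Ensembl gene identifiers. The genes were selected on their levels over the 8 groups and their hyperoxia change in these same libraries, so both are given as a description. Litters of C57BL/6 pups were mixed and randomised to room air (normoxia) or to hyperoxia, a fraction of inspired oxygen of 0.9, for 1.5 days. The lungs were then perfused and digested, and 4 populations were sorted by surface proteins. Each of the 43 libraries is bulk RNA of a sorted population.

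The dendritic cell sort (DC) took cells high in MHC class II and CD11c, and the alveolar macrophage sort (AM) took cells high in Siglec-F and CD11c. The Ly6Chi sort took cells high in Ly6C and low in CD11c, and the Ly6Clo sort took cells low in Ly6C and high in CD11c. All animals were wild-type neonates of the same strain, as far as the labels say. Normoxia had 6 libraries each of DC, AM and Ly6Chi and 5 of Ly6Clo, and hyperoxia had 5 of each population. Litters 93, 100 and 108 are present in all 8 groups. Litter 100 gave 1 hyperoxic library per population, which is replicate 3 throughout, and replicates 4 and 5 of hyperoxia are of litter 108. Replicate numbers are only names, given in deposit order. Which pup gave which library is not in the labels, so p-values measure the spread between libraries, which may in part be technical. Libraries of the same replicate number in different populations may share pups. A pattern seen in several populations may therefore not be several separate observations.

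Library totals ran from 551960 to 2403861 counts, and 3 counts, the limit that a count of 0 allows, stood for 1.20 to 5.69 CPM (counts scaled to a library of 1000000). Libraries under 1000000 counts were 1 of AM normoxia, 3 of AM hyperoxia and 1 of Ly6Clo hyperoxia. Replicate 3 had the lowest total of the hyperoxic libraries in each population. Its totals were 1309747 counts in DC, 551960 in AM, 1026528 in Ly6Chi and 647844 in Ly6Clo. Replicate 5 had the highest total of the hyperoxic libraries in AM and Ly6Chi. The defining genes of the sorts followed their labels. In normoxia H2-Ab1 (MHC class II) averaged 1180 ± 254 CPM in DC against 95.6 to 175 CPM elsewhere. Siglecf (Siglec-F) averaged 130 ± 32.9 CPM in AM against 2.999 to 19.7 CPM elsewhere. Ly6c2 (Ly6C) averaged 419 ± 71.6 CPM in Ly6Chi against 19.0 CPM in Ly6Clo, 22.4 CPM in AM and 137 ± 27.6 CPM in DC. Hyperoxia replicates 3 and 5 stand apart from the other hyperoxic libraries for Slamf7 and Slamf8. Fitted changes of the members that rest on them are given with and without them. This setting was chosen after seeing the data, so smaller changes of Slamf7 and Slamf8 in it are no test. Correlations, and fold changes of listed genes other than Itgam, are given with all libraries only.

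SLAM receptors are immunoglobulin-like surface proteins of blood cells. Most bind a copy of themselves on the neighbouring cell, while CD48, which is held in the membrane by a lipid anchor, binds CD2 and CD244. The tails of SLAMF1, SLAMF7, CD84 and Ly9 carry tyrosine motifs that recruit the small adaptors SAP and EAT-2 or inhibitory phosphatases, whereas SLAMF8 and SLAMF9 have short tails without them. In macrophages SLAMF7 is known for promoting the engulfment of blood tumour cells together with the integrin Mac-1, SLAMF1 for sensing bacteria and assembling lipid kinase on the phagosome, and SLAMF8 for damping the phagosomal NADPH oxidase.

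The stretch upstream of the transcription start is shown for Slamf8 and Slamf7, the genes with the widest spread between hyperoxic libraries, and for Slamf9, whose level separates Ly6Chi from the other sorts. The sequences are RefSeq's for build GRCm38.p6, whereas the counts were made on NCBIM37. They match 6 of the 7 genes, and Ly9 had no entry. All lie on chromosome 1, at chr1:172590569-172590818 on the minus strand, chr1:171649000-171649249 on the minus strand and chr1:172475110-172475359 on the plus strand, and are written 5′ to 3′ along the gene. In the RefSeq gene order Ly9, Slamf7, Cd48, Slamf1 and Cd84 follow each other between Cd244a and Slamf6, with the pseudogene Tma7-ps between Cd48 and Slamf1, and Slamf9 and Slamf8 lie farther along the chromosome. Capitals mark a match to the interferon-stimulated response element core (GAAA, then NN, then GAAA) in Slamf8, read on the opposite strand, and to the PU.1 core GAGGAA in Slamf9.
Slamf8 upstream 250 bases: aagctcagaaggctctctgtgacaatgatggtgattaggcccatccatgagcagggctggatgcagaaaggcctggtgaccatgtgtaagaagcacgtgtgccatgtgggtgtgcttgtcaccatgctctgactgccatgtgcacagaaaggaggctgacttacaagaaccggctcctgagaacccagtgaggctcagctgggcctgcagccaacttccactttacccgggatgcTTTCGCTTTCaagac
Slamf7 upstream 250 bases: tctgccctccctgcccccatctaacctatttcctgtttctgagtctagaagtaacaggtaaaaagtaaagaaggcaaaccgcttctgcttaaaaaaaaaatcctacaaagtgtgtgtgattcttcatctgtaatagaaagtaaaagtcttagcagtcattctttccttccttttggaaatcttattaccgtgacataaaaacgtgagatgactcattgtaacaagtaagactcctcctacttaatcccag
Slamf9 upstream 250 bases: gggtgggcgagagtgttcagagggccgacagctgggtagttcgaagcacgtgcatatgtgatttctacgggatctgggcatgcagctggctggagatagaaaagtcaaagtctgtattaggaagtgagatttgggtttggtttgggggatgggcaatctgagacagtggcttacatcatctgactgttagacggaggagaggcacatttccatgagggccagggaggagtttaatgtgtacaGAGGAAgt
The searches covered both strands and added the gamma-activated site TTCNNNGAA, and no match overlapped a match to another motif. Slamf8 had 1 match to the interferon-stimulated response element core and Slamf9 had 1 to the PU.1 core, with 0 matches to any of the motifs in the windows of Slamf1, Slamf7, Cd48 and Cd84. Over all 32851 windows of the same length, 2.98% held the first motif, 7.02% the gamma-activated site and 23.3% the PU.1 core. These matches describe letters in the windows and show no binding.

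Per kilobase of exon, Cd48 stood highest of the 7 genes in all 8 groups, at 379 ± 46.8 CPM per kilobase in Ly6Chi normoxia to 517 ± 144 in AM hyperoxia. In AM and Ly6Clo the next gene was Slamf9, at 220 ± 47.0 and 251 ± 42.0 CPM per kilobase in normoxia, followed by Cd84 at 70.1 ± 6.11 and 74.8 ± 9.38. In normoxic DC the order was Cd48 (389 ± 36.1), Slamf9 (162 ± 19.2), Slamf7 (93.2 ± 14.3), Cd84 (41.2 ± 4.36), Slamf8 (29.0 ± 9.38), Ly9 (13.5 ± 2.55) and Slamf1 (1.35 ± 1.01). In normoxic Ly6Chi, Cd84 (41.7 ± 2.71 CPM per kilobase) followed Cd48, and Ly9, Slamf9 and Slamf8 lay within their spread of each other at 11.7 ± 2.38, 11.1 ± 4.11 and 8.01 ± 3.02. Slamf1 had under 2 CPM per kilobase as a mean in every group.

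**Figure D1:**
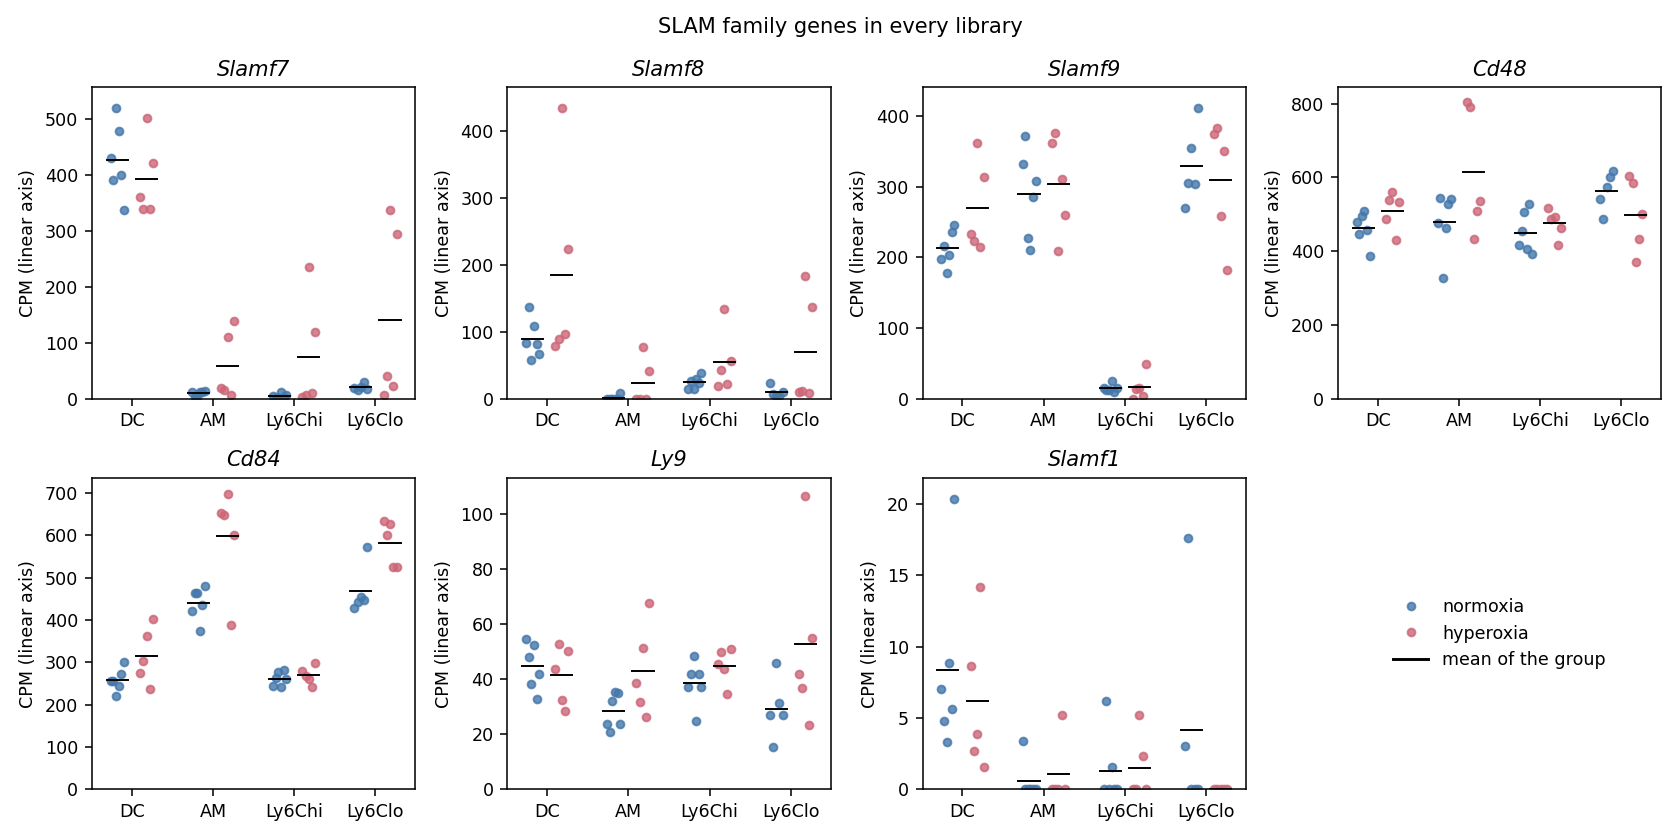
Level of the 7 SLAM family genes in all 43 libraries. The x axis gives the sorted population and the y axis CPM on a linear scale with its own range for each gene; each point is a library, blue for normoxia and red for hyperoxia, in replicate order from left to right, and the black line is the group mean. Slamf7 was 337 to 520.3 CPM in normoxic DC and at most 29.1 CPM in the other normoxic libraries, and a pair of hyperoxic libraries in AM, Ly6Chi and Ly6Clo lies far above the other 3.

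Slamf7 encodes the self-binding receptor also called CRACC or CD319. In normoxic DC it was 337 at the lowest, 415 at the median and 520.3 CPM at the highest of 6 libraries. In normoxic AM the lowest, median and highest were 3.36, 11.5 and 13.5 CPM, in Ly6Chi 0.949, 3.95 and 11.1 CPM, and the 5 Ly6Clo libraries had 18.4, 15.4, 20.9, 29.1 and 16.5 CPM. The DC libraries thus lay above all others, and the Ly6Clo libraries above those of AM and Ly6Chi. AM and Ly6Chi, at means of 9.36 ± 4.62 and 4.89 ± 3.88 CPM (SD, n = 6 each), overlapped. In bulk libraries a level set by fewer cells of a type and by less RNA per cell cannot be told apart.

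In hyperoxia the DC libraries had 361, 339.9, 503, 339.2 and 422 CPM of Slamf7, within the normoxic range. The hyperoxic AM libraries had 18.7, 15.9, 110.0, 6.96 and 139 CPM, those of Ly6Chi 2.80, 7.06, 235.5, 10.7 and 119 CPM, and those of Ly6Clo 7.22, 40.1, 338, 22.0 and 294 CPM, in the order of replicates 1 to 5. Replicates 3 and 5 were thus the highest in AM, Ly6Chi and Ly6Clo and lay above every normoxic library there, as did replicates 1 and 2 in AM and replicate 2 in Ly6Clo, while replicate 4, of the same litter as 5, lay above no normoxic maximum in any population. The group means were 58.1 ± 61.6 CPM in AM, 75.0 ± 102 in Ly6Chi and 140 ± 162 in Ly6Clo (SD, n = 5 each), with SDs above the means.

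The fitted log2 fold change of Slamf7 (hyperoxia over normoxia, litter as block) was 2.38 ± 0.70 (SE) in AM, 3.38 ± 0.96 in Ly6Chi, 2.41 ± 1.01 in Ly6Clo and −0.06 ± 0.10 in DC. With hyperoxia replicates 3 and 5 left out of each population, it was 0.46 ± 0.67 in AM, 0.80 ± 0.83 in Ly6Chi, 0.46 ± 0.48 in Ly6Clo and −0.19 ± 0.10 in DC. This pair was chosen after its Slamf7 and Slamf8 values were seen, so lower changes without it are no test. Within litters, the difference in mean log2 CPM was largest in litter 100, at 3.92 in AM, 5.42 in Ly6Chi and 3.74 in Ly6Clo, each from 1 hyperoxic library. In litter 93 it was 1.33, 0.73 and 0.03, and in litter 108 it was 1.30, 2.87 and 2.25. Exons of the antisense gene Gm37787 cover 9.24% of the exonic bases of Slamf7, and with no strand setting given in the sources used here its reads cannot be told apart from those of Slamf7.

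Slamf8 encodes a short-tailed receptor of myeloid cells, and its promoter window above holds the interferon-stimulated response element match. In normoxic DC it was 58.2, 82.5 and 137 CPM at the lowest, median and highest, and in normoxic Ly6Chi 14.4, 25.1 and 38.6 CPM. The normoxic Ly6Clo libraries had 23.9, 7.15, 3.35, 3.64 and 9.55 CPM, and of the 6 AM libraries 5 had a count of 0 and replicate 6 had 8.46 CPM. DC therefore lay above all other normoxic libraries, and AM below those of Ly6Chi, whereas AM and Ly6Clo overlapped.

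In hyperoxia, Slamf8 in replicates 1 to 5 was 79.0, 90.0, 435, 97.4 and 224 CPM in DC and 19.6, 42.99, 134, 21.8 and 56.4 CPM in Ly6Chi. It was 9.63, 11.5, 184, 8.48 and 137 CPM in Ly6Clo, and 77.7 and 40.8 CPM in AM replicates 3 and 5 (41 and 67 counts), with a count of 0 in the other 3 AM libraries. Replicates 3 and 5 lay above all normoxic libraries of their population in 4 of 4 populations, replicate 2 in 1 (Ly6Chi), and replicates 1 and 4 in 0. Unlike for Slamf7, this held in DC too. In the same DC libraries Ly6c2 was 547 and 257 CPM in replicates 3 and 5, against 124 to 133 CPM in the other 3 and at most 173 CPM in normoxia. The summed T and NK cell markers described below were 197.5 and 132 CPM there, against 44.4 to 82.8 CPM in the other 3. In normoxia they were 61.5 to 323 CPM. Of these sums, Il7r, the interleukin-7 receptor gene, was 108.8 CPM in replicate 3 and 104.5 CPM in replicate 5. Without Il7r the sum was 88.7 CPM in replicate 3 and 27.16 CPM in replicate 5. It was 12.99 to 38.54 CPM in the other 3, so replicate 5 lay within their range. The part of Ly6c2 or of these markers in the Slamf8 values was not tested.

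The fitted log2 fold change of Slamf8 was 0.94 ± 0.47 in DC, 1.05 ± 0.42 in Ly6Chi and 2.39 ± 1.36 in Ly6Clo. It did not pass the filter on low counts in AM. Without hyperoxia replicates 3 and 5 the values were −0.06 ± 0.24, 0.18 ± 0.44 and −0.43 ± 0.54. Over all 43 libraries Slamf8 and Slamf7 had a Pearson r of 0.672 and a Spearman rho of 0.673 for log2 CPM, as points that share library depth and the differences between populations.

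**Figure D2:**
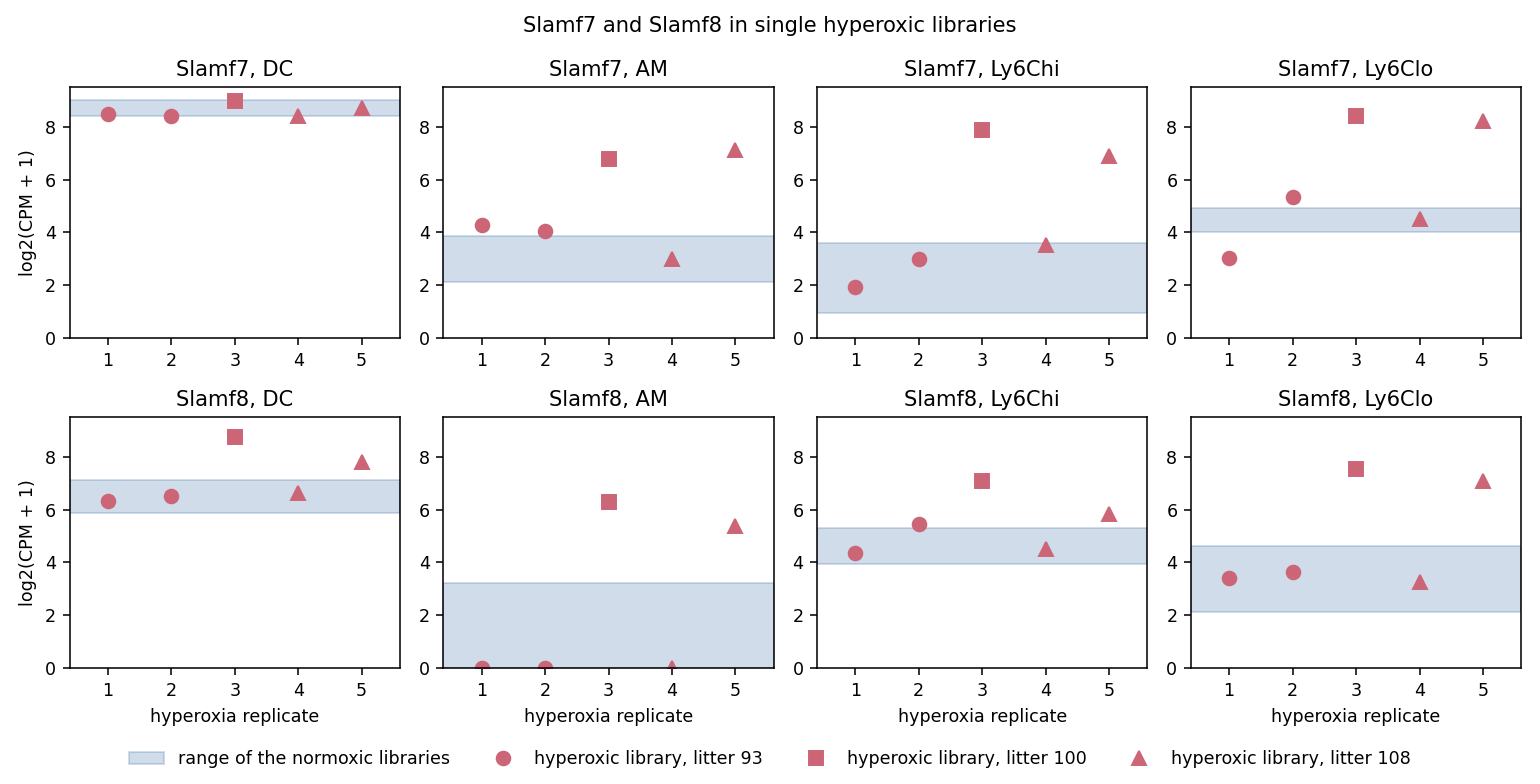
Slamf7 (top) and Slamf8 (bottom) in each hyperoxic library. The x axis is the hyperoxia replicate, the y axis log2(CPM + 1), the symbol gives the litter and the blue band spans the lowest to the highest normoxic library of the population. Replicates 3 and 5 lie above the band for Slamf8 in 4 of 4 populations and for Slamf7 in 3 of 4, with DC the exception; replicate 4 lies above no band.

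Markers of other cells were read in the same libraries, and their part in the result was not tested. The summed level of 10 T and NK cell markers in hyperoxia replicates 1 to 5 was 45.4, 46.3, 299.6, 66.2 and 241 CPM in AM and 71.4, 36.1, 451, 95.8 and 357 CPM in Ly6Clo. In AM and Ly6Clo replicates 3 and 5 most of it was Il7r, the interleukin-7 receptor, at 243 and 232 CPM in AM and 439.9 and 318 CPM in Ly6Clo. Cd3e, a defining T cell gene, had at most 1 count in each of these libraries. Cd3d and Cd3g, T cell genes too, had 6 and 6 counts in AM replicate 3 and 0 and 0 in AM replicate 5. In Ly6Clo they had 2 and 0 counts in replicate 3 and 7 and 12 counts in replicate 5. The sum without Il7r in replicates 1 to 5 was 6.68, 9.75, 56.9, 27.0 and 9.75 CPM in AM and 32.1, 4.92, 11.1, 45.4 and 38.1 CPM in Ly6Clo, where replicates 3 and 5 were no longer the highest pair.

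In Ly6Chi the same sum was 21.9, 5.13, 660.5, 20.8 and 107 CPM, and replicate 3 held 227 CPM of Nkg7 and 229 CPM of Gzma, genes of cytotoxic granules. Normoxic libraries ranged from 31.9 to 123 CPM in AM, 0.418 to 130.0 in Ly6Chi and 51.3 to 582 in Ly6Clo. The 10 markers were all detected in hyperoxic AM, Ly6Chi and Ly6Clo, and Ncr1 was at 0 throughout normoxic AM and Ly6Chi. H2-Ab1, the class II gene of the DC sort, was 108 and 354 CPM in AM replicates 3 and 5, against 295 to 349 CPM in the other 3. It was 113 and 32.1 CPM in Ly6Clo replicates 3 and 5, against 74.4 to 152 CPM in the others, and 256 and 168 CPM in Ly6Chi, against 154 to 196 CPM. AM replicate 5 and Ly6Chi replicate 3 were thus the highest hyperoxic libraries of their population for H2-Ab1, and AM replicate 3 and Ly6Clo replicate 5 the lowest. Siglecf was 68.3 and 74.4 CPM in AM replicates 3 and 5, against 87.8 to 102.8 CPM in the other 3 and 72.8 to 159.7 CPM in normoxia. It was 6.35 and 6.53 CPM in Ly6Clo, against 9.63 to 17.2 CPM, and 0 and 6.32 CPM in Ly6Chi, against 1.39 to 8.34 CPM. The part of these sort genes in the Slamf7 and Slamf8 values was not tested.

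Epithelial markers (5 genes) summed to 1460 CPM in AM replicate 3 and 87.8 CPM in replicate 5, with 82.8 to 1281 CPM in the other 3. They summed to 92.7 and 43.8 CPM in Ly6Chi replicates 3 and 5 (19.9 to 871 in the others) and to 202 and 79.5 CPM in Ly6Clo (70.5 to 893). Neutrophil markers (6 genes) were highest in replicate 3 of AM, Ly6Chi and Ly6Clo, at 776, 1776 and 665 CPM, whereas replicate 5 had 219, 1107 and 208 CPM. Markers of plasmacytoid dendritic cells (5 genes) summed to 239 and 249 CPM in AM replicates 3 and 5, against 149 to 222 CPM in the other 3. They summed to 589 and 262 CPM in Ly6Chi (242 to 291 in the others) and to 454 and 299 CPM in Ly6Clo (221 to 278). Replicates 3 and 5 were thus the highest pair for this list in AM and Ly6Clo, but not in Ly6Chi. Markers of basophils and mast cells (5 genes) summed to 30.3 and 12.8 CPM in AM replicates 3 and 5, 43.8 and 207 CPM in Ly6Chi, and 22.2 and 1.09 CPM in Ly6Clo. These sums were below the highest hyperoxic library of each population. Of these 6 lists of other cells, that of T and NK cells was the only list in which replicates 3 and 5 were the highest pair in all 3 populations, and without Il7r this held in Ly6Chi alone. B cell markers (6 genes) summed to 269 to 827 CPM in DC libraries of both oxygen conditions, and to 5.69 and 17.1 CPM in AM hyperoxia replicates 3 and 5. In Ly6Clo hyperoxia the B cell sum was 38.1 and 41.9 CPM in replicates 3 and 5, below the 131 to 176 CPM of the other 3.

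Slamf9 encodes the other short-tailed receptor of the set, and its window above holds the PU.1 core. In normoxia it ranged from 178 to 246 CPM in DC, 210.5 to 372 in AM and 269.9 to 412 in Ly6Clo, but from 9.28 to 24.8 in Ly6Chi. Ly6Chi thus lay below every library of the other sorts, and DC below Ly6Clo, while AM overlapped both. In hyperoxia the means were 269.6 ± 65.0 CPM in DC, 304 ± 70.2 in AM, 310.1 ± 86.6 in Ly6Clo and 16.5 ± 19.2 in Ly6Chi. The fitted log2 fold change lay between −0.09 ± 0.21 (Ly6Clo) and 0.35 ± 0.14 (DC), and the DC value was 0.02 ± 0.11 without hyperoxia replicates 3 and 5. The Ly6Chi value, 0.05 ± 0.79, was −1.17 ± 0.84 without them.

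Cd48 encodes the lipid-anchored ligand of CD2 and CD244. Group means lay between 450.3 ± 55.7 CPM in Ly6Chi normoxia and 614 ± 171 in AM hyperoxia, and no pair of normoxic populations was separated. Its fitted log2 fold changes were 0.17 ± 0.09 in DC, 0.26 ± 0.14 in AM, 0.10 ± 0.10 in Ly6Chi and −0.19 ± 0.16 in Ly6Clo. Without hyperoxia replicates 3 and 5 they were 0.10 ± 0.10, 0.37 ± 0.19, 0.07 ± 0.13 and −0.03 ± 0.17, and without litter 93 the Ly6Clo value was −0.50 ± 0.20 and the AM value 0.03 ± 0.17. The 2 AM libraries above 700 CPM, at 804 and 790.0 CPM, were both hyperoxic libraries of litter 93, so the within-litter difference in AM was 0.64 there, 0.15 in litter 100 and −0.03 in litter 108. Cd48 reached 0.891 counts per exonic base, more than the highest value of 99.6% of the genes kept, where the highest of any gene was 1.73. Differences in Cd48 would be compressed if counts were limited per base, which was not tested, and a correction for such a limit put its mean at 544 CPM in DC normoxia in place of 462 ± 42.9.

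Cd84 encodes a self-binding receptor of many blood cells. In normoxia it ranged from 375 to 480.3 CPM in AM and from 429 to 573 in Ly6Clo, above the 221 to 302 CPM of DC and the 242 to 283 CPM of Ly6Chi without overlap. Hyperoxic AM libraries had 653, 647, 698, 389 and 601 CPM and those of Ly6Clo 634, 600.5, 627, 524.5 and 525 CPM. In AM 4 of 5 hyperoxic libraries lay above the normoxic maximum, with replicate 4 the exception, and in Ly6Clo 3 of 5 did. The fitted log2 fold changes were 0.43 ± 0.14 in AM, 0.33 ± 0.15 in Ly6Clo, 0.29 ± 0.13 in DC and 0.05 ± 0.09 in Ly6Chi. Without hyperoxia replicates 3 and 5 they were 0.26 ± 0.19, 0.29 ± 0.17, −0.01 ± 0.12 and 0.01 ± 0.10, so that the DC value rested on those libraries. The AM value was 0.13 without the libraries under 1000000 counts, and the Ly6Clo value was 0.52 without normoxia replicate 5.

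Ly9 encodes CD229, a self-binding receptor best known in lymphocytes. Its means were between 28.4 ± 6.46 CPM in AM normoxia and 52.7 ± 32.1 in Ly6Clo hyperoxia, and no pair of normoxic populations was separated. Hyperoxic AM libraries had 38.7, 31.7, 51.2, 26.1 and 67.7 CPM against 20.8 to 35.4 in normoxia, and hyperoxic Ly6Clo libraries 41.7, 36.9, 106, 23.5 and 55.0 CPM against 15.4 to 46.0. The highest values were again those of replicates 3 and 5, and both groups overlapped with normoxia. The fitted log2 fold change was 0.65 ± 0.27 in AM and 0.99 ± 0.30 in Ly6Clo, and 0.34 ± 0.33 and 0.54 ± 0.34 without the pair. Within litters 93, 100 and 108 the difference was 0.64, 0.60 and 0.54 in AM and 0.92, 1.47 and 0.41 in Ly6Clo. It was 0.27, 0.33 and 0.09 in Ly6Chi, and −0.09, −0.46 and 0.02 in DC.

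Slamf1 encodes the founding SLAM receptor, CD150, which serves as a microbial sensor in macrophages. It passed the filter on low counts only in DC, at 8.33 ± 6.20 CPM in normoxia (3.32 to 20.4) and 6.18 ± 5.24 in hyperoxia (1.54 to 14.2), with a fitted log2 fold change of −0.44 ± 0.54. Without hyperoxia replicates 3 and 5 it was 0.04 ± 0.53, and without replicate 5 alone −0.10. A count of 0 was found in 5 of 6 AM, 4 of 6 Ly6Chi and 3 of 5 Ly6Clo libraries in normoxia, and in 4, 3 and 5 of 5 in hyperoxia. The highest value outside DC was 17.6 CPM (32 counts) in Ly6Clo normoxia replicate 2. That library also had 259.7 CPM of Lck, 99.0 CPM of Cd3d and 58.3 CPM of Cd3e, T cell genes, and 84 counts of Sh2d1a, which encodes SAP, and their part in the Slamf1 value was not tested.

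**Figure D3:**
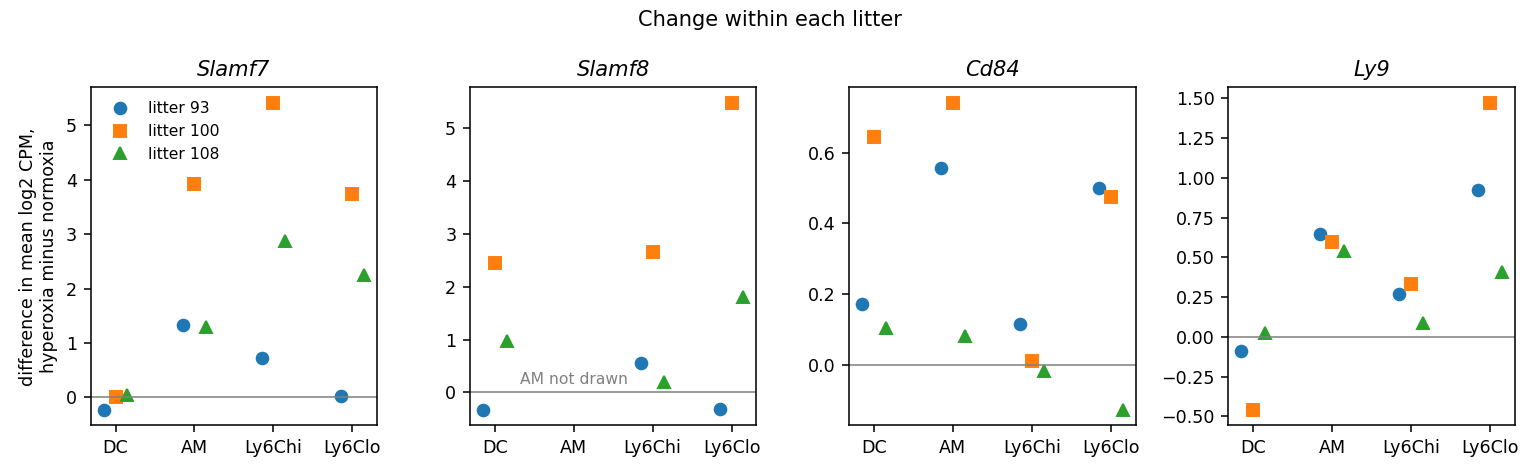
Difference in mean log2 CPM, hyperoxia minus normoxia (y axis, own range for each gene), of Slamf7, Slamf8, Cd84 and Ly9 within litters 93, 100 and 108 (symbols) in each population (x axis). Each point compares 1 or 2 hyperoxic with 1 or 2 normoxic libraries; Slamf8 in AM is not drawn because most of its counts are 0. Ly9 lies above 0 in all 3 litters in AM and Ly6Clo, as in Ly6Chi, and Slamf7 is farthest from 0 in litter 100 in AM, Ly6Chi and Ly6Clo but not in DC.

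The separation of the sorts was set beside that of all 12529 genes kept over the 43 libraries. Ranges of normoxic libraries did not overlap between DC and AM for 3 of 7 members (all genes 22.3%), between DC and Ly6Chi for 3 (14.3%), and between DC and Ly6Clo for 4 (14.2%). The counts were 3 for AM against Ly6Chi (24.2%), 1, Slamf7, for AM against Ly6Clo (9.49%) and 3 for Ly6Chi against Ly6Clo (15.3%). Slamf7 and Slamf8 were higher in DC in each of its 3 comparisons. For hyperoxia against normoxia, 0 of 7 members were separated in DC (all genes 0.431%), AM (0.83%), Ly6Chi (0.231%) and Ly6Clo (0.686%). The members were selected on these levels, so nothing is read from these shares.

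Across all genes, edgeR's quasi-likelihood test with Benjamini-Hochberg adjustment called 0 members at an adjusted p under 0.05 in any population. The share of all genes called was 0% in DC, 0.11% in AM, 0% in Ly6Chi and 0% in Ly6Clo. At an unadjusted p under 0.05 the members counted were 2 of 7 tested in DC (Slamf9 and Cd84, all genes 8.85%), 3 of 5 in AM (Slamf7, Cd84 and Ly9, 9.91%), 2 of 6 in Ly6Chi (Slamf7 and Slamf8, 5.45%) and 3 of 6 in Ly6Clo (Slamf7, Cd84 and Ly9, 5.3%). DESeq2 and limma voom also called 0 members, and DESeq2 called 0.252% of genes in DC, 1.23% in AM, 0.0461% in Ly6Chi and 0.00982% in Ly6Clo. The rule used these contrasts, so the counts are a description.

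Whether the hyperoxia change differs between populations was fitted over all libraries, with no term for pups that several populations may share. edgeR called 0 of 7 members and 0% of all genes, and DESeq2 0 members and 0.25% of genes. At an unadjusted p under 0.05 it was 1 member, Slamf7 (edgeR adjusted p = 0.771), against 4.92% of all genes. Without a filter on low counts edgeR called Slamf8 in all 4 populations and Slamf7 in AM, Ly6Chi and Ly6Clo. In Ly6Chi its adjusted p was 8.53e-21 for Slamf7 and 0.0115 for Slamf8. Hyperoxic Ly6Chi replicates 1, 2 and 4 lay within the normoxic range of Slamf7. The same setting raised the calls over all genes in DC from 0 to 369 and in AM from 11 to 325. In Ly6Chi they rose from 0 to 235 and in Ly6Clo from 0 to 173. Leaving out AM hyperoxia replicate 4, the library of that group with the lowest Slamf7, gave an edgeR call for Slamf7 in AM (log2 fold change 2.70, adjusted p = 0.0163), while the calls over all genes in AM went from 11 to 39.

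**Figure D4:**
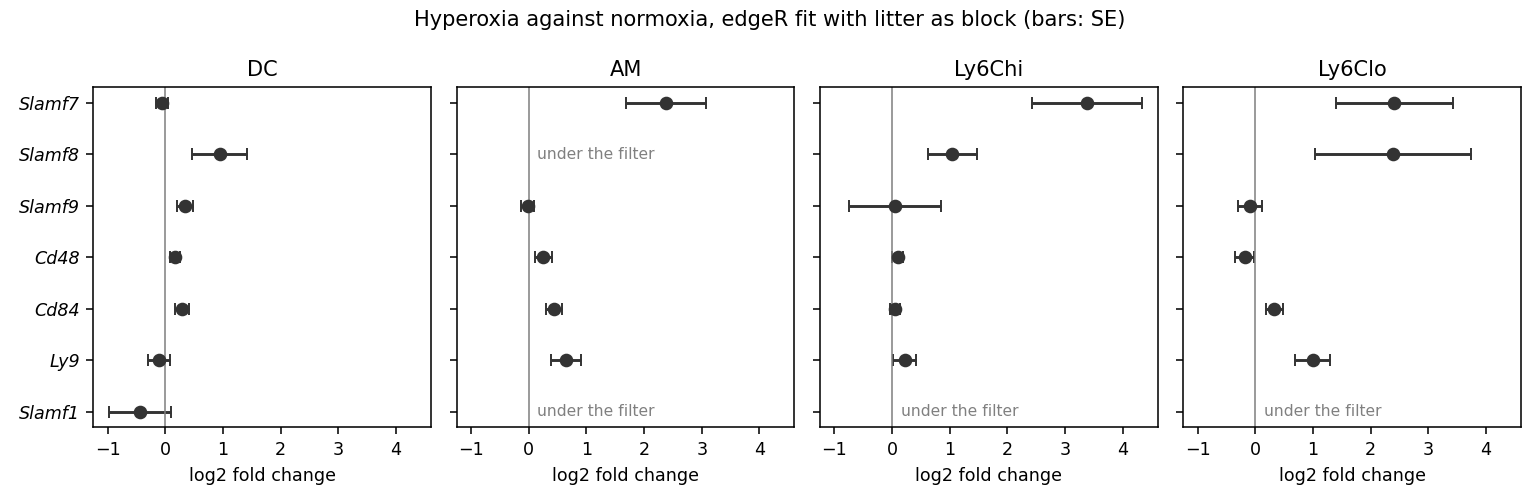
Fitted log2 fold change of the 7 genes, hyperoxia over normoxia (x axis), in each population, from edgeR with litter as block; points are estimates and bars are SE. The estimates for Slamf7 in AM, Ly6Chi and Ly6Clo and for Slamf8 in Ly6Clo lie above 2 with SEs of 0.70 to 1.36, and 0 of the estimates passed an adjusted p of 0.05.

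Genes that work with SLAM receptors were read from lists in the same fits. Of the other family members and the CD48 ligand CD2, 0 of 3 tested were called in any population. Slamf6, a self-binding receptor of lymphocytes, averaged 61.8 ± 22.1 CPM in DC normoxia and 86.9 ± 23.6 in hyperoxia. Cd244a, the CD48 receptor, was lowest in AM, at 46.7 ± 20.3 CPM in normoxia, against 205 ± 58.6 in Ly6Chi. Cd2 averaged 173 ± 66.7 CPM in normoxic AM and 23.6 ± 14.6 in Ly6Chi.

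Among 9 adaptors and enzymes of SLAM tails, 5 were tested in each population and 0 were called. Sh2d1a, Sh2d1b2 and Prkcq stayed under the filter on low counts, and Sh2d1b1 was not analysed here. The highest of the list were Ptpn6 (SHP-1, an inhibitory phosphatase), Inpp5d (SHIP-1, a lipid phosphatase) and Csk, an inhibitory kinase. Ptpn6 averaged 336 ± 68.4 CPM in AM, 548 ± 108 in DC, 579 ± 129 in Ly6Clo and 760.4 ± 108 in Ly6Chi in normoxia. Inpp5d averaged 122 ± 27.6 CPM in normoxic AM and 307 ± 43.1 in DC, and Csk 81.1 ± 9.68 and 110.4 ± 11.2.

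Of the 6 partners of SLAMF7 in phagocytosis, 1 was called as risen and 0 as fallen in AM, where 0.11% of all genes were called. In the other populations 0 were called. Itgam, which encodes the CD11b chain of Mac-1, had 32.1, 30.2, 48.8, 44.1, 17.9 and 38.9 CPM in normoxic AM and 68.1, 64.6, 161, 75.7 and 190.2 CPM in hyperoxic AM. The groups did not overlap, as for 0.83% of all genes in AM, and replicates 3 and 5 were again the highest. Its log2 fold change was 1.70 ± 0.28 (edgeR adjusted p = 0.0186). With replicates 3 and 5 left out it was 1.23 ± 0.28 (adjusted p = 0.343), and without replicate 3 alone 1.67 ± 0.34 (adjusted p = 0.228). Leaving out normoxia replicate 5 or 6 ended the call as well, at adjusted p values of 0.0553 and 0.0847.

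The median log2 fold change of the 6 partners was 0.46 in AM, 0.10 in DC, 0.02 in Ly6Chi and 0.17 in Ly6Clo, where that of all genes lay between −0.01 and 0.00. These medians are a description and were not tested. Fcer1g and Tyrobp, which encode the signalling chains FcRγ and DAP12, averaged 710.0 ± 209.7 and 742 ± 246 CPM in normoxic AM and 977 ± 332 and 1004 ± 348 in hyperoxic AM (edgeR adjusted p = 0.341 and 0.42). Itgb2, the other chain of Mac-1, averaged 596 ± 119 and 742 ± 97.4 CPM (adjusted p = 0.487).

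Of 9 partners of SLAMF1 on the phagosome and NADPH oxidase subunits, all were tested in each population and 0 were called. Cybb, the catalytic subunit, averaged 945 ± 205 CPM in normoxic and 1493 ± 524 in hyperoxic AM (log2 fold change 0.68 ± 0.18, edgeR adjusted p = 0.202), and DESeq2 called it there (adjusted p = 0.0234). Cyba, its membrane partner, averaged 849 ± 196 and 1134 ± 333 CPM in AM (edgeR adjusted p = 0.366). Rac2, a small GTPase of the oxidase, averaged 390.3 ± 105 and 427 ± 114 CPM. In DC, where Slamf8 had its highest levels, Cybb averaged 772 ± 103 CPM in normoxia and 1036 ± 398 in hyperoxia.

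For each member the 3 genes with the nearest pattern were taken by Pearson r of log2 CPM over the 43 libraries, among 12242 genes with a symbol. These libraries share depth, litters and the differences between sorts, so the values are a description. Slamf7 was nearest to Cxcl16, a chemokine (r = 0.902), Fmnl2 (0.896) and H2-Q5 (0.886). Slamf8 was nearest to Fbxw17 (0.878), the peptide transporter gene Tap1 (0.877) and Nlrc5, a regulator of MHC class I genes (0.877).

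These genes were chosen by their likeness over the same libraries, so their values in hyperoxia replicates 3 and 5 are no separate evidence. Cxcl16 was 149.8 and 207 CPM in AM replicates 3 and 5, against 9.35 to 33.1 CPM in the other 3. Tap1 was 335 and 219 CPM in Ly6Clo replicates 3 and 5, against 31.3 to 49.97 CPM in the others, and Nlrc5 was 85.8 and 66.9 CPM against 2.41 to 8.48.

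Slamf9 was nearest to Itgax (r = 0.92), which encodes the CD11c used in the sorts, Dab2 (0.916) and Pdcd1lg2 (0.91). Cd84 was nearest to Dmxl2 (0.924), Plin2, a coat protein of lipid droplets (0.924), and Ctsd, a lysosomal protease (0.921). Cd48 was nearest to Psma1, a proteasome subunit (0.885), Cd53 (0.871) and Gm6180 (0.865). Slamf1 was nearest to the costimulator Icos (0.787), Elavl4 (0.779) and Rab30 (0.765), and Ly9, with the lowest r of the 7, to Rnf19b (0.657), Zc3h12c (0.656) and Ptafr (0.646). Between members r ran from −0.516 for Slamf1 with Cd84 to 0.672 for Slamf7 with Slamf8.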

How the data were processed

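The authors deposited raw whole-number counts for Ensembl genes. The submitters' processing notes name NCBIM37 as the build and, as tools, SAMtools, Picard, FastQC, HTSeq 0.4.1 and TopHat; their roles and the annotation release are not given in the sources used here. Kits were SMART-Seq v4 and Nextera XT, per the labels' protocols, without molecular identifiers, so intervals and floors cover counting error only. Of 37991 genes, 32919 received a symbol and an exonic length from GENCODE M21 (GRCm38), and 0 columns were left unused. No libraries held identical counts.

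Members and lists were chosen with earlier results of these data known. Genes named beside members are those called in any population, otherwise the 3 highest of each list by mean CPM, and the 3 nearest by r for each member.

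Each population was fitted alone in R 4.3.3 with edgeR 4.0.16 (filterByExpr with minimum count 10 and total 15, TMM, robust quasi-likelihood), with litter as an additive block, as the labels name litters. Adjustment ran over all genes tested. The SE of an edgeR log2 fold change is its absolute value divided by the square root of the test's F value, and is approximate. CPM were scaled by TMM over 43 libraries; log2 CPM used a prior count of 1 and fold changes 0.125. Alternatives were DESeq2 1.42.0, limma 3.58.1 voom, other scalings, no filter, no block, litters or libraries left out, and a correction for a limit of 2 counts per exonic base. The test was checked on simulated counts with a fixed spread and no litter effects. That check does not cover genes as variable between libraries as Slamf7 and Slamf8. Figures used Python 3.11.15 and matplotlib 3.10.9. No protein sequences were compared.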

Additional observations from a re-analysis of the deposited data

Results flagged for a closer look

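Each group of 5 or 6 libraries was examined for a library far from the others (Dixon's test at its 95% level), and 6 of 55 groups of the 7 genes had one. Chance gives about 1 in 20, but a single library above 0 in a group otherwise at 0 is always flagged. The 6 of 55 is therefore not read as an excess. Of the 6 flagged, 3 are libraries with a few counts where all others of the group had 0. They are Slamf1 at 3.38 CPM in AM normoxia replicate 1, Slamf1 at 5.22 CPM in AM hyperoxia replicate 4 and Slamf8 at 8.46 CPM in AM normoxia replicate 6. Cd48 was lowest in AM normoxia replicate 3, at 326 CPM with the next at 462.5. Cd84 was lowest in AM hyperoxia replicate 4, at 389 CPM with the next at 601, and highest in Ly6Clo normoxia replicate 5, at 573 CPM with the next at 454. Hyperoxia replicates 3 and 5 of Slamf7 and Slamf8 are not among them, since a pair of high libraries leaves no single gap.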

How the results depend on the processing

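With hyperoxia replicates 3 and 5 left out, some of the members' uncalled log2 fold changes moved by at least the SD between libraries of a group. These were Slamf7 in AM, Ly6Chi and Ly6Clo, Slamf8 in DC, Ly6Chi and Ly6Clo, and Slamf9 and Cd84 in DC. The other fitted changes moved by less. The value of Slamf8 was then −0.06 in DC and −0.43 in Ly6Clo, and that of Slamf7 stayed above 0 in AM, Ly6Chi and Ly6Clo. The cause was not tested. Without a filter on low counts, edgeR called 1 member in DC, 2 in AM, 2 in Ly6Chi, 2 in Ly6Clo and 3 for the difference between populations (Slamf1, Slamf7 and Slamf8), and of the listed genes 1 in DC and 6 in AM. The same setting called 369 genes in DC, 325 in AM, 235 in Ly6Chi, 173 in Ly6Clo and 524 between populations, where the filtered fits called 0, 11, 0, 0 and 0. DESeq2 called 2 listed genes in AM (Itgam and Cybb), and 24, 111, 5, 1 and 21 of all genes. Of the listed genes in AM, 0 were called without the litter as block, without litter 93, 100 or 108, without libraries under 1000000 counts, and with hyperoxia replicates 3 and 5 left out, which was chosen after seeing the data; some of these fits also have fewer samples. Leaving out each library in turn gave 0 to 1 member called in AM and 0 to 1 listed gene called in AM. Pairing was by litter, which was the block of the reported fits. Replicate numbers are deposit order and were not used to pair libraries, though libraries of the same number may share pups. The correction for a count limit put mean Cd48 at 609 CPM in DC hyperoxia, 521 and 546 CPM in Ly6Chi and 666 CPM in Ly6Clo normoxia. Depth limits Slamf1 and Slamf8 in AM, where a count of 0 allows 1.69 to 5.69 CPM over the AM libraries.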
